A study of Mus musculus with 12 samples.

Results

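The genes described here are 10 components of MHC class I antigen presentation: the classical heavy chains H2-K1 and H2-D1, their light chain B2m, the peptide transporter subunits Tap1 and Tap2, the loading factor Tapbp, the transcriptional coactivator Nlrc5, and the immunoproteasome subunits Psmb8, Psmb9 and Psmb10. They were taken by symbol from a table of 55487 gene identifiers, in which each matched 1 identifier. RNA was sequenced from BV2, a mouse microglial line made immortal in culture, and the same line served for all groups. The 4 groups, with 3 libraries each, were cells in normal glucose (NG), in normal glucose with CD200Fc at 50 ng/mL (NG+CD200Fc), in high glucose (HG), and in high glucose with the same dose of CD200Fc (HG+CD200Fc). CD200Fc joins CD200, a ligand of an inhibitory receptor on myeloid cells, to an antibody Fc part. How much glucose was used and for how long is not stated in the labels, and no group received an Fc protein alone or an osmolyte. The source label names BV2 cells, while the treatment protocol in the labels describes dissection of mouse retina and sorting of GFP-positive cells, and the source label was followed. The labels do not tie the libraries of a group to separate cultures, so the p-values reflect the spread among libraries alone, and that spread may be technical.

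MHC class I molecules show fragments of a cell's own proteins on its surface to CD8 T cells and natural killer cells. The proteasome cuts proteins into peptides, the TAP transporter carries the peptides into the endoplasmic reticulum, tapasin holds empty class I molecules beside the transporter, and loaded complexes of a heavy chain and beta-2-microglobulin travel to the surface. Interferons induce the whole pathway, in part through IRF1 and the coactivator NLRC5, and replace the catalytic subunits of the constitutive proteasome by those of the immunoproteasome. Microglia carry little class I at rest and raise it in inflammation.

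Of the 10 genes, 7 lie on chromosome 17 (GRCm38), in the mouse MHC. Tap1 (ENSMUSG00000037321, 34187553 to 34197225, plus strand) and Psmb9 (ENSMUSG00000096727, 34181987 to 34187764, minus strand) are arranged head to head and overlap by 212 bases. Psmb8 (ENSMUSG00000024338, 34197721 to 34201454, plus strand) follows Tap1 after 495 bases, and Tap2 (ENSMUSG00000024339, 34203527 to 34216321, plus strand) follows Psmb8 after 2072 bases. Tapbp (ENSMUSG00000024308, 33915899 to 33929292, plus strand), H2-K1 (ENSMUSG00000061232, 33996017 to 34000347, minus strand) and H2-D1 (ENSMUSG00000073411, 35262730 to 35267499, plus strand) flank them. B2m (ENSMUSG00000060802) is on chromosome 2, 122147686 to 122153083, plus strand. Nlrc5 (ENSMUSG00000074151, 94434356 to 94527272, plus strand) and Psmb10 (ENSMUSG00000031897, 105935735 to 105938444, minus strand) are on chromosome 8.

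RefSeq windows of 250 bases before an annotated start (GRCm38.p6) were matched for 8 of the 10 genes, all but Tap2 and Nlrc5. The B2m window is printed without its last base. The windows of H2-K1 (the upper of its annotated starts), at chr17:34000348-34000597 on the minus strand, and of B2m, at chr2:122147437-122147685 on the plus strand, are shown because the heavy and light chains are the most abundant of the genes and their windows hold letters of the kinds described for class I promoters. These are an NF-kB type sequence beside an interferon response element (in H2-K1 its shorter core alone) and, nearer the start, a CREB/ATF type sequence and a CCAAT box. Capitals mark matches to the searched letters, on either strand.
H2-K1: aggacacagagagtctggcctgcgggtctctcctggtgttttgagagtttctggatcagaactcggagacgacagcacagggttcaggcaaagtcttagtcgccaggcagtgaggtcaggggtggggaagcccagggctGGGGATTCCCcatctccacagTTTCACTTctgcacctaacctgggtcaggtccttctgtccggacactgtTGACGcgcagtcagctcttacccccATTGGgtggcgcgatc
B2m: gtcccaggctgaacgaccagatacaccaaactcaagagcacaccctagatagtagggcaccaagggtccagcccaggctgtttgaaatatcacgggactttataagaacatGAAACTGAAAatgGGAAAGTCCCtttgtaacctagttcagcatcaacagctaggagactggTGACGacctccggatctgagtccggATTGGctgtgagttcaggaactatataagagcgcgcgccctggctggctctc

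The stretch that holds the NF-kB and interferon response letters can be set side by side for the heavy and light chains, and a stretch from the 225 bases between the RefSeq starts of Tap1 and Psmb9 shows a TGACG match found in the windows of both. All 29 bases of the H2-D1 stretch and all 29 of the stretch between Tap1 and Psmb9 lie in exons of GENCODE transcripts, which start farther upstream than the RefSeq starts used here, while the H2-K1 and B2m stretches lie in none. The stretches lie at chr17:34000430-34000458 (minus strand), chr17:35262923-35262951 (plus strand), chr2:122147548-122147570 (plus strand) and chr17:34187458-34187486 (plus strand), in this order.
H2-K1 stretch: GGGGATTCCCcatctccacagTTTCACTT
H2-D1 stretch: GGGGATTCCCcatctcctcagTTTCACTT
B2m stretch: GAAACTGAAAatgGGAAAGTCCC
between Tap1 and Psmb9: cccagagacaggTGACGacagagggtcct

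Searched on both strands were 7 motifs. They were an interferon response element, its shorter core AANNGAAA, which every match of the former contains, the sequence TTCNNNGAA, an NF-kB type sequence, the CREB/ATF type sequence TGACG, the box named after its letters CCAAT, and the GC box GGGCGG. The capitals show the letters matched, by the NF-kB type sequence in the windows of H2-K1 and B2m and by the whole interferon response element in that of B2m. The NF-kB type sequence was found in the windows of H2-K1, H2-D1 and B2m, and in 4.11% of all 32817 windows. TGACG was found for 5 of the 8 genes (H2-K1, H2-D1, B2m, Tap1 and Psmb9) and in 17.7% of all windows. AANNGAAA was found for 3 genes, H2-K1, H2-D1 and B2m, against 21.3% of all windows, and the interferon response element for B2m against 2.97%. TTCNNNGAA was found for Psmb8 against 7.01%. CCAAT was found for 6 of 8 genes against 33.8%, and GGGCGG for 3 of 8 against 32.7%. These motifs were chosen with the windows in view, and a match is a description of the letters and not of binding.

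Total counts per library ran from 21454087 to 31905649. The libraries of HG included 1, replicate 2, that stood apart: ribosomal RNA genes took 1.49% of its counts, and no more than 0.119% of those of any other library. Values without this library stand beside the results on the 10 genes, most of their ratios and each list whose calls are counted. For the further gene lists and the added ratios this alternative was chosen after the data were seen. The 14 microglia and macrophage markers summed to 5234 to 5489 CPM (TMM-scaled counts, relative to the library total) in NG, 4957 to 5134 in NG+CD200Fc, 4942 to 5592 in HG and 4534 to 4787 in HG+CD200Fc, the lowest group without overlap. Of the 13 tested, 6 were lower and 0 higher in HG+CD200Fc vs HG, beside 8.3% and 9.46% of all genes. In HG vs NG 4 were higher and 3 lower, beside 11.7% and 12.9% of all genes. Without HG replicate 2 the counts were 6 lower and 0 higher, and 4 higher and 2 lower. Sall1, a marker of resident microglia, had 1 count in all. Markers of T, NK and B cells summed to 3.45 to 4.37 CPM in HG and to 2.03 to 3.10 CPM in the other groups. Of these, 2 of 9 (Ncr1 and Klrb1c) were at 0 throughout. Cd4 had a mean of 2.27 CPM in HG and 0.810 in NG, while Cd3e went the other way, at 0.551 and 0.907. The 6 dendritic cell markers summed to 36.7 to 38.8 CPM in HG and to 32.2 to 34.3 CPM in NG. Their sums were 31.7 to 33.0 CPM in NG+CD200Fc and 29.4 to 36.2 CPM in HG+CD200Fc. Zbtb46 had a mean of 15.3 CPM in HG and 9.68 in NG, while Batf3 went the other way, at 21.5 and 22.9. The part of these differences in the results on class I genes was not tested. In bulk libraries, fewer cells of a kind and less RNA per cell cannot be told apart.

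The 10 genes together took 0.147% to 0.155% of all counts in NG, 0.142% to 0.160% in NG+CD200Fc, 0.194% to 0.214% in HG and 0.131% to 0.138% in HG+CD200Fc. The HG libraries lay above all others and the HG+CD200Fc libraries below all others.

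Per transcript length, the light chain was the most abundant of the genes and Tap2 had the lowest level. In NG, B2m stood at 502 ± 21 CPM per kilobase of its principal transcript (mean ± SD, n = 3), H2-K1 at 277 ± 7.80 and H2-D1 at 102 ± 4.72. Tapbp followed with 69.1 ± 2.29 CPM per kilobase. The immunoproteasome subunits Psmb10 and Psmb8 were close to each other, at 34.8 ± 5.09 and 32.1 ± 1.54. The lowest levels per kilobase were those of Tap1 (9.92 ± 0.540), Psmb9 (9.42 ± 0.348), Nlrc5 (6.29 ± 0.505) and Tap2 (6.0 ± 0.345). Neighbours whose SDs overlap, Psmb10 with Psmb8, Tap1 with Psmb9, and Nlrc5 with Tap2, did not differ beyond their spread. The constitutive catalytic subunits that the immunoproteasome subunits replace were more abundant per kilobase than their replacements, with Psmb6 at 398 ± 17.3, Psmb7 at 85.6 ± 2.69 and Psmb5 at 81.6 ± 6.82. When the union of all annotated exons was used as the length, a choice added after the data were seen, the order of B2m, Psmb6, H2-K1 and H2-D1 was kept, and Psmb9 became the lowest at 3.48 CPM per kilobase with Tap1 next at 5.35. On that length Psmb7, at 29.0 CPM per kilobase, was close to Psmb10 at 26.8. Psmb5 (81.6) and Psmb6 (169) stayed well above Psmb8 (15.5) and Psmb9. The level of a ratio of counts per kilobase thus depends on the length chosen.

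**Figure D1:**
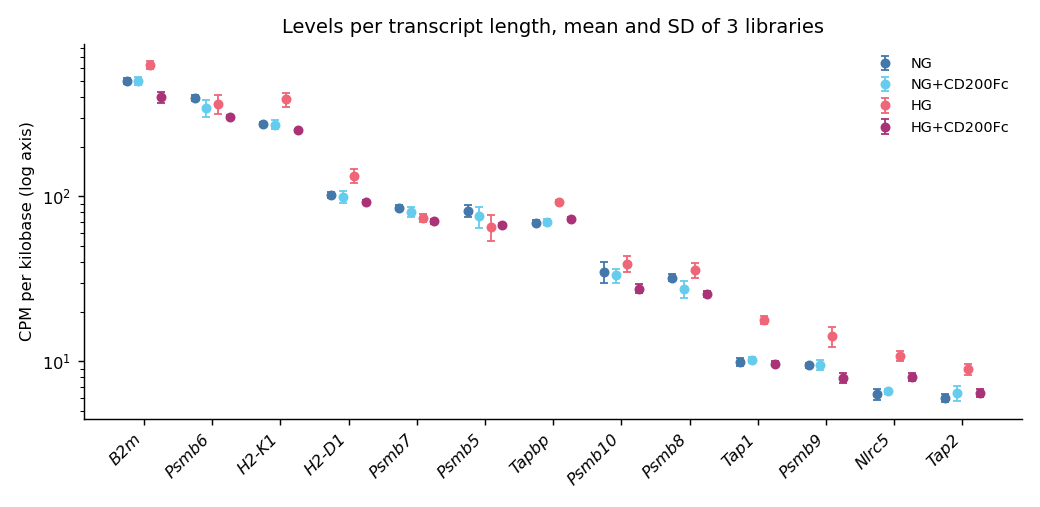
CPM per kilobase of the principal transcript (log axis) for the 10 class I pathway genes and the constitutive subunits Psmb5, Psmb6 and Psmb7, as mean and SD of 3 libraries in each of the 4 groups. The genes are ordered by their NG level, from B2m at 502 to Tap2 at 6.0, and the HG point is the highest of the 4 for each of the 10 class I pathway genes and not for the constitutive subunits.

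High glucose without CD200Fc (HG vs NG) asks what high glucose alone changed, and high glucose with CD200Fc against high glucose (HG+CD200Fc vs HG) asks what CD200Fc changed in it. In HG vs NG, 8 of the 10 genes were higher, 0 were lower, and Psmb8 and Psmb10 did not pass (edgeR quasi-likelihood test, Benjamini-Hochberg adjusted p under 0.05). Over all 19182 genes tested, 24.6% passed in this comparison, 11.7% as higher and 12.9% as lower. The median log2 fold change was 0.46 over the 10 genes and 0.02 over all genes tested. In HG+CD200Fc vs HG, all 10 genes were lower, beside 17.8% of all genes that passed, 9.46% as higher and 8.3% as lower. The median was -0.52 over the 10 genes and -0.02 over all genes. The HG libraries enter both comparisons, so a gene that is high in HG is high in one and low in the other, and the values are given side by side.

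**Figure D2:**
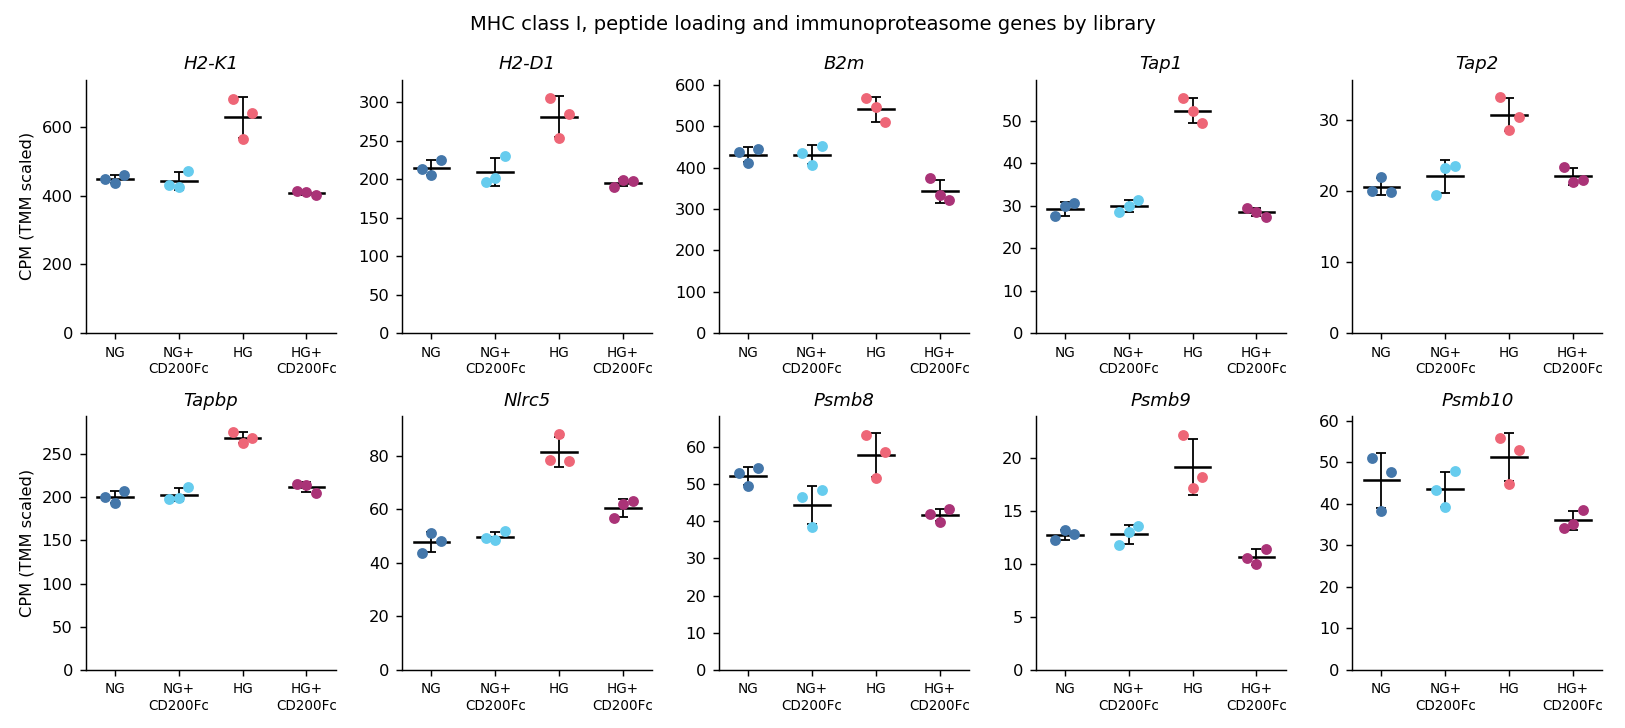
CPM after TMM scaling in each of the 12 libraries for the 10 class I pathway genes, with points for libraries, a horizontal bar for the mean and a vertical bar for the SD (n = 3). For 8 genes the 3 HG points lie above the 3 NG points, Psmb8 and Psmb10 being the exceptions, and for all 10 genes the HG+CD200Fc points lie below the HG points.

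The classical heavy chains bind the peptide and are what a T cell receptor recognises. H2-K1 had 448, 436 and 461 CPM in NG, 681, 564 and 639 in HG, 413, 411 and 401 in HG+CD200Fc, and 430, 425 and 472 in NG+CD200Fc. The lowest HG library exceeded all 9 others, and the HG+CD200Fc libraries were the lowest of the 12. The log2 fold change was 0.49 ± 0.059 (SE) in HG vs NG (adjusted p = 7.47e-07), and -0.62 ± 0.059 in HG+CD200Fc vs HG, a level 35.0% lower (adjusted p = 2.09e-08). H2-D1 ran from 206 to 226 CPM in NG and from 253 to 306 in HG, and from 190 to 199 in HG+CD200Fc, with 196 to 231 in NG+CD200Fc. Its groups followed the same order, with a smaller log2 fold change of 0.39 ± 0.066 in HG vs NG (adjusted p = 7.99e-05) and -0.52 ± 0.066 in HG+CD200Fc vs HG (adjusted p = 1.68e-06). The library counts of these genes are not wholly separate. Their principal transcripts were 90.5% identical over 1585 aligned bases, and 1.55% of the 75-base windows of H2-K1 and 6.90% of those of H2-D1 occurred in transcripts of another gene. At the read length of 150 bases the shares were 0% and 1.79%, the latter with H2-Q1.

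The ratio of H2-K1 to H2-D1 counts per kilobase was 2.72, 2.75 and 2.65 in NG and 2.89, 2.89 and 2.92 in HG. The 3 HG values lay above the NG values, by 0.10 on the log2 scale. This ratio is one of 8 chosen after the data were seen, and 3 libraries against 3 cannot give an exact permutation p below 0.1, which was its value. The difference was also 0.10, without overlap, when HG replicate 2 was left out.

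B2m, the light chain of every class I molecule, had 439, 411 and 444 CPM in NG, 434, 407 and 453 in NG+CD200Fc, 568, 546 and 509 in HG, and 374, 334 and 321 in HG+CD200Fc. The HG libraries were the 3 highest and the HG+CD200Fc libraries the 3 lowest, below those of both normal glucose groups. The log2 fold change was 0.33 ± 0.060 in HG vs NG (adjusted p = 1.82e-04) and -0.66 ± 0.060 in HG+CD200Fc vs HG (36.6% lower, adjusted p = 9.17e-09). Its point estimate was the smallest of the 8 genes that passed in HG vs NG.

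Tap1 and Tap2 form the peptide transporter. Tap1 had 27.5, 29.8 and 30.5 CPM in NG, 28.6, 30.0 and 31.4 in NG+CD200Fc, 55.5, 52.3 and 49.5 in HG, and 29.4, 28.6 and 27.4 in HG+CD200Fc. The HG libraries stood far above the rest, while the other 3 groups overlapped. Its log2 fold change of 0.84 ± 0.075 in HG vs NG (1.79-fold, adjusted p = 4.00e-09) had the largest point estimate of the 10 genes, as did its -0.88 ± 0.075 in HG+CD200Fc vs HG (45.6% lower, adjusted p = 2.55e-09). Tap2 had 20.1, 22 and 19.9 CPM in NG and 33.3, 28.7 and 30.4 in HG, with 23.4, 21.3 and 21.6 in HG+CD200Fc and 19.4, 23.3 and 23.6 in NG+CD200Fc. The HG libraries were again the 3 highest, with log2 fold changes of 0.58 ± 0.092 (adjusted p = 3.85e-05) and -0.48 ± 0.092 (adjusted p = 3.96e-04).

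The proportion of the transporter subunits was higher in HG libraries than in NG and HG+CD200Fc libraries. The ratio of Tap1 to Tap2 counts per kilobase was 1.60, 1.58 and 1.79 in NG, 1.94, 2.12 and 1.90 in HG, and 1.46, 1.57 and 1.48 in HG+CD200Fc. The HG values lay above those of both other groups without overlap, by 0.26 on the log2 scale over NG, with an exact permutation p of 0.1, the smallest that 3 against 3 libraries allow, and by 0.21 without HG replicate 2. Tap1 and Psmb9 overlap in 212 exon bases on opposite strands, 3.87% of the exon bases of Tap1, and the strand setting of the counting is not given in the sources used here, so reads there cannot be told apart.

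Tapbp encodes tapasin, which bridges the transporter and the empty heavy chain. Its CPM ran from 194 to 207 in NG, from 198 to 213 in NG+CD200Fc, from 263 to 276 in HG and from 205 to 216 in HG+CD200Fc. The HG range was clear of the other 3. The log2 fold change was 0.43 ± 0.052 in HG vs NG (adjusted p = 7.52e-07) and -0.35 ± 0.052 in HG+CD200Fc vs HG (21.4% lower, adjusted p = 1.74e-05), the smallest fall of the 10 genes. Tapbp shares 149 exon bases, 4.11% of its exon bases, with Zbtb22 on the same strand.

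Nlrc5, the class I transactivator, had 43.6, 51.2 and 48.2 CPM in NG, 49.2, 48.4 and 51.7 in NG+CD200Fc, 78.3, 88.0 and 77.9 in HG, and 56.7, 62.1 and 63.0 in HG+CD200Fc. The groups stood in steps, with HG highest, HG+CD200Fc between, and both normal glucose groups lowest, and only the latter overlapped. The log2 fold change was 0.77 ± 0.069 in HG vs NG (1.71-fold, adjusted p = 4.43e-09) and -0.43 ± 0.068 in HG+CD200Fc vs HG (25.6% lower, adjusted p = 4.32e-05). The ratio of Nlrc5 to Tap1 counts per kilobase, a ratio chosen after the data were seen, was 0.550 to 0.656 in HG and 0.751 to 0.895 in HG+CD200Fc, a log2 difference of 0.45 without overlap (exact permutation p = 0.1, the smallest possible). The HG libraries were lower by -0.51 when HG replicate 2 was left out, again without overlap.

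Of the immunoproteasome subunits, Psmb9 passed in HG vs NG and Psmb8 and Psmb10 did not. Psmb9, which replaces Psmb6, had 12.2, 13.2 and 12.8 CPM in NG, 22.2, 17.1 and 18.2 in HG, 10.5, 9.95 and 11.4 in HG+CD200Fc, and 11.8, 13 and 13.5 in NG+CD200Fc. The HG libraries were the 3 highest and the HG+CD200Fc libraries the 3 lowest. Its log2 fold change was 0.59 ± 0.11 in HG vs NG (adjusted p = 2.56e-04) and -0.85 ± 0.11 in HG+CD200Fc vs HG (44.5% lower, adjusted p = 3.36e-06). Psmb8, which replaces Psmb5, had 53.1, 49.5 and 54.3 CPM in NG and 63.3, 51.7 and 58.7 in HG. These ranges overlapped, and the log2 fold change of 0.15 ± 0.080 did not pass (adjusted p = 0.191, 95% interval -0.0096 to 0.31). Psmb10, which replaces Psmb7, had 51.0, 38.2 and 47.7 CPM in NG and 55.9, 44.9 and 52.9 in HG, also overlapping, with 0.17 ± 0.099 (adjusted p = 0.237, 95% interval -0.026 to 0.36). In both genes replicate 2 was the lowest library of its group in NG, NG+CD200Fc and HG, and for Psmb8 in HG+CD200Fc as well. With 1 library left out at a time the values ran from 0.059 (without HG replicate 1) to 0.22 (without HG replicate 2, adjusted p = 0.0627) for Psmb8, and from 0.053 (without NG replicate 2) to 0.25 (without HG replicate 2, adjusted p = 0.0797) for Psmb10, where leaving out HG replicate 1 gave 0.080.

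With CD200Fc in high glucose, Psmb8 had 41.9, 39.9 and 43.3 CPM and Psmb10 had 34.3, 35.2 and 38.5 CPM, all below the HG libraries. The log2 fold change against HG was -0.47 ± 0.082 for Psmb8 (adjusted p = 1.11e-04) and -0.51 ± 0.10 for Psmb10 (adjusted p = 9.77e-04). The ratio of Psmb9 to Psmb8 counts per kilobase was also chosen after the data were seen. It was 0.278, 0.321 and 0.284 in NG, 0.422, 0.399 and 0.372 in HG, and 0.303, 0.300 and 0.318 in HG+CD200Fc. In NG+CD200Fc it was 0.306, 0.407 and 0.337, a range that overlapped those of NG and HG. The HG values lay above those of NG without overlap, by 0.44 on the log2 scale (exact permutation p = 0.1, the smallest possible). The difference was 0.43 without HG replicate 2. Of the other ratios chosen after the data were seen, Psmb9 to Psmb10 overlapped between HG and NG (0.41, exact permutation p = 0.2). So did Psmb8 to Psmb10 (-0.03, exact permutation p = 0.8) and H2-K1 to B2m (0.16, exact permutation p = 0.3). Nlrc5 to Tap1 also overlapped (-0.07, exact permutation p = 0.4), but not without HG replicate 2 (-0.13). Tap1 to Psmb9 was higher in HG without overlap (0.26, exact permutation p = 0.1).

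The 3 libraries of each group did not overlap for 8 of the 10 genes in HG vs NG, all higher in HG, and over all genes this held for 39.7%, 19.9% as higher and 19.8% as lower. It held for all 10 genes in HG+CD200Fc vs HG, each lower, against 31.3% of all genes, 15.3% as higher and 16% as lower. Without HG replicate 2, the same 8 of 10 genes passed in HG vs NG, with log2 fold changes from 0.32 for B2m to 0.84 for Tap1, and all 10 passed in HG+CD200Fc vs HG, from -0.37 for Tapbp and Nlrc5 to -0.93 for Psmb9. In the other alternatives tried for these comparisons each of the 10 genes kept its side of the threshold.

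**Figure D3:**
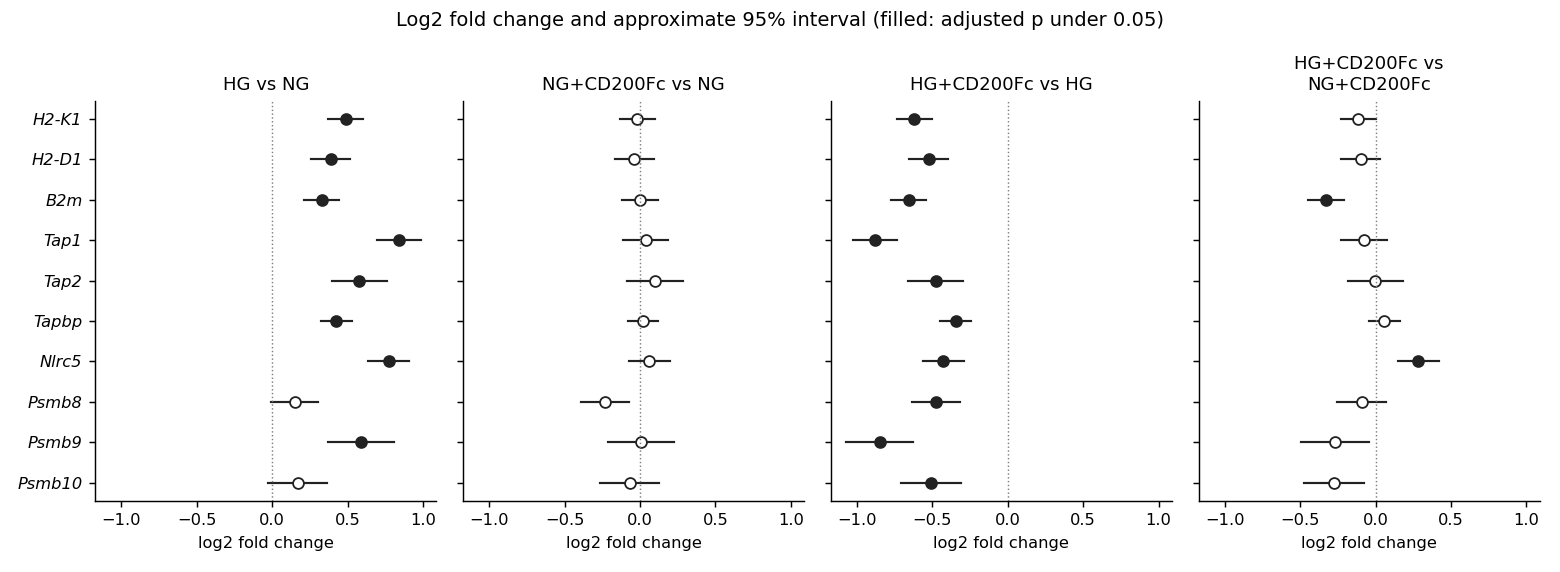
Log2 fold change with its approximate 95% interval for the 10 class I pathway genes in 4 comparisons, filled where the adjusted p was under 0.05. HG vs NG has 8 filled points, all above 0, HG+CD200Fc vs HG has 10, all below 0, NG+CD200Fc vs NG has 0, and HG+CD200Fc vs NG+CD200Fc has 2, Nlrc5 above 0 and B2m below 0.

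The exchange of constitutive for immunoproteasome subunits was described by the ratio of each inducible subunit to the one it replaces, in counts per kilobase, which does not depend on library scaling. Psmb8 to Psmb5 was 0.366, 0.399 and 0.420 in NG, 0.496, 0.576 and 0.571 in HG, 0.391, 0.367 and 0.383 in HG+CD200Fc, and 0.407, 0.345 and 0.337 in NG+CD200Fc. Psmb9 to Psmb6 was 0.0238 ± 0.0019 in NG and 0.0390 ± 0.0019 in HG, then 0.0258 ± 0.0011 in HG+CD200Fc and 0.0276 ± 0.0028 in NG+CD200Fc (mean ± SD, n = 3). Psmb10 to Psmb7 was 0.406 ± 0.051 in NG, 0.528 ± 0.042 in HG, 0.389 ± 0.011 in HG+CD200Fc and 0.411 ± 0.024 in NG+CD200Fc. For each ratio the 3 HG libraries lay above all 9 others.

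On the log2 scale the ratios were 0.47 (Psmb8 to Psmb5), 0.72 (Psmb9 to Psmb6) and 0.38 (Psmb10 to Psmb7) higher in HG than in NG, and 0.53, 0.59 and 0.44 lower in HG+CD200Fc than in HG. Each of these 6 differences had an exact two-sided permutation p of 0.1, the smallest that 3 against 3 libraries allow. The test set for the ratios compared high with normal glucose over both CD200Fc levels, permuting libraries within a level (400 relabellings), and it passed for none of the 3 after adjustment. The log2 difference was 0.27 for Psmb8 to Psmb5 (exact p = 0.025, 0.075 adjusted over 3 ratios), 0.31 for Psmb9 to Psmb6 (exact p = 0.08, adjusted 0.12) and 0.15 for Psmb10 to Psmb7 (exact p = 0.17, adjusted 0.17). Without HG replicate 2 the differences were 0.25 (exact p = 0.03), 0.30 (exact p = 0.12) and 0.19 (exact p = 0.225). Between HG+CD200Fc and NG+CD200Fc the ratios overlapped, with log2 differences of 0.07, -0.09 and -0.08. In NG+CD200Fc, Psmb9 to Psmb6 was higher than in NG without overlap (0.22, exact permutation p = 0.1). The margin was small, 0.02554 in the lowest NG+CD200Fc library against 0.02546 in the highest NG library. Psmb8 to Psmb5 and Psmb10 to Psmb7 overlapped between these groups (-0.12 and 0.02).

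The constitutive subunits in these ratios were not at one level across groups. Psmb7 was lower in HG than in NG (-0.21 ± 0.062, adjusted p = 0.0124), while Psmb5 (-0.31 ± 0.12, adjusted p = 0.088) and Psmb6 (-0.13 ± 0.089, adjusted p = 0.328) did not pass. In HG+CD200Fc vs HG 0 of these 3 passed with edgeR, at 0.04, -0.26 and -0.07 for Psmb5, Psmb6 and Psmb7, and 1 (Psmb6) had an unadjusted p under 0.05. Without HG replicate 2 the call of Psmb7 in HG vs NG was lost (-0.18, adjusted p = 0.0553), Psmb5 and Psmb6 stood at -0.21 and -0.035, and Psmb6 passed as lower in HG+CD200Fc vs HG (-0.35, adjusted p = 0.00207). Of the 11 other subunits of the constitutive 20S core, 7 were lower and 0 higher in HG vs NG (median -0.24), beside 12.9% and 11.7% of all genes, and 0 passed in HG+CD200Fc vs HG with edgeR, where 2 had an unadjusted p under 0.05, both lower. When HG replicate 2 was left out, 5 of the 7 calls in HG vs NG were lost and 2 of the 11 subunits were lower (median -0.17), beside 9.26% of all genes. In HG+CD200Fc vs NG+CD200Fc, 3 of the 11 were lower and 0 higher (median -0.25), beside 3.65% and 4.65% of all genes. All 11 estimates there were below 0. In the fit without HG replicate 2, 6 were lower there, beside 4.48% of all genes.

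**Figure D4:**
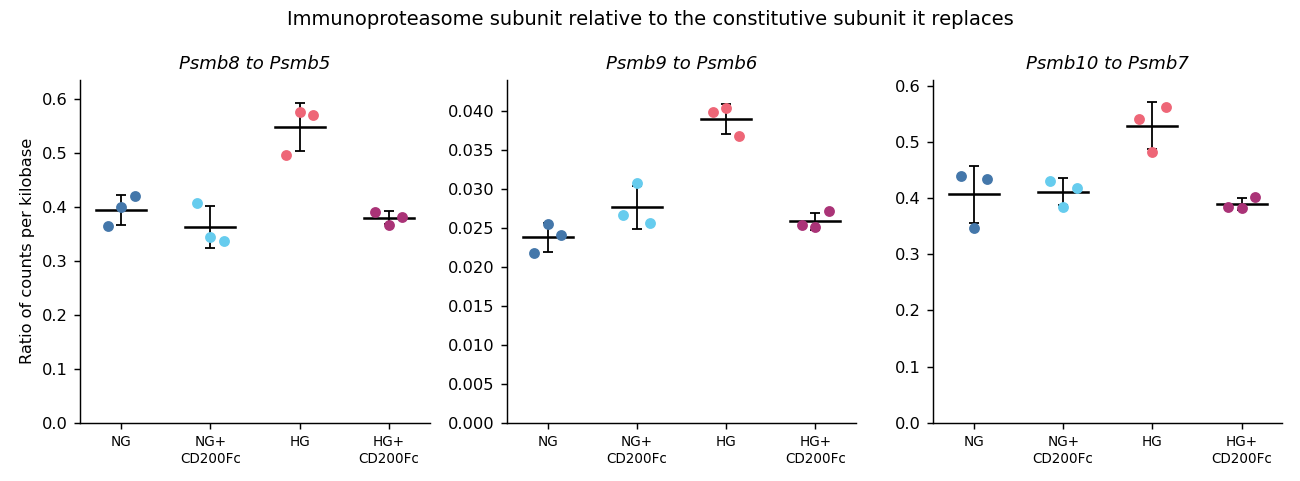
Ratio of counts per kilobase of each immunoproteasome subunit to the constitutive subunit it replaces, by library, with mean and SD (n = 3). In each panel the 3 HG points lie above the points of the other groups, at means of 0.548, 0.0390 and 0.528.

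CD200Fc in normal glucose (NG+CD200Fc vs NG) asks what the fusion protein did without high glucose. Of the 10 genes 0 passed, and of all 19182 genes 0 did (0%) with edgeR, DESeq2 or limma voom, while 1147 genes had an unadjusted p under 0.05 with edgeR. Among the 10 genes, 1 had an unadjusted p under 0.05, Psmb8 with a log2 fold change of -0.23 ± 0.081 (adjusted p = 0.816), whose libraries at 46.5, 38.5 and 48.4 CPM all lay below those of NG. Libraries that did not overlap were found for this 1 gene of the 10, and for 11.9% of all genes, 5.71% as higher and 6.16% as lower. The other 9 genes had log2 fold changes between -0.07 for Psmb10 and 0.10 for Tap2. For H2-K1 the 95% interval ran from -0.14 to 0.10, for B2m from -0.12 to 0.12, and for Tap1 from -0.11 to 0.19. The log2 fold changes of these 3 genes in HG+CD200Fc vs HG lay outside these intervals.

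The interaction asks whether CD200Fc changed the genes differently in high and in normal glucose. It passed for 8 of the 10 genes, each lower, beside 7.2% of all genes (3.62% as higher and 3.58% as lower), and the 10 genes had a median of -0.53 against -0.01 over all genes. Values ran from -0.37 ± 0.073 for Tapbp (adjusted p = 0.00172) to -0.92 ± 0.11 for Tap1 (adjusted p = 1.85e-06). The heavy chains stood at -0.60 ± 0.084 (H2-K1) and -0.49 ± 0.093 (H2-D1), B2m at -0.66 ± 0.084, and Psmb9 at -0.86 ± 0.16. The genes that did not pass were Psmb8 at -0.24 ± 0.12 (adjusted p = 0.247) and Psmb10 at -0.44 ± 0.14 (adjusted p = 0.0646). Psmb10 passed in 9 of the 19 alternatives, with adjusted p from 0.00233 with no filter to 0.048 with the stricter filter: upper quartile scaling, no filter, the stricter filter, DESeq2, voom, the replicate number as a block, and without NG replicate 1, NG+CD200Fc replicate 2 or HG replicate 2 (-0.53, adjusted p = 0.0172). Over all 19 its value ran from -0.53 to -0.33 and its adjusted p up to 0.176.

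High against normal glucose with CD200Fc in both (HG+CD200Fc vs NG+CD200Fc) asks what high glucose left in its presence. Of the 10 genes, 2 passed, in opposite directions, beside 8.3% of all genes (4.65% higher and 3.65% lower). Nlrc5 was higher, by 0.28 ± 0.069 on the log2 scale (1.22-fold, adjusted p = 0.0131), and all 3 of its HG+CD200Fc libraries lay above those of NG+CD200Fc. This call was lost without NG+CD200Fc replicate 1 (0.26, adjusted p = 0.0654), HG+CD200Fc replicate 2 (0.26, adjusted p = 0.0822) or HG+CD200Fc replicate 3 (0.25, adjusted p = 0.0746). B2m was lower, by -0.33 ± 0.060 (20.4% lower, adjusted p = 0.00231), and kept its call in every alternative tried. The other 8 genes did not pass, with values from -0.28 ± 0.10 for Psmb10 (adjusted p = 0.0982) and -0.27 ± 0.11 for Psmb9 (adjusted p = 0.151) to 0.06 ± 0.052 for Tapbp (adjusted p = 0.548). The 95% intervals were -0.23 to 0.0014 for H2-K1, -0.23 to 0.03 for H2-D1 and -0.23 to 0.07 for Tap1. They were -0.18 to 0.18 for Tap2, -0.25 to 0.07 for Psmb8 and -0.04 to 0.16 for Tapbp. Those of Psmb9 (-0.49 to -0.043) and Psmb10 (-0.47 to -0.076) were wider and lay below 0 (edgeR, unadjusted p = 0.0274 and 0.0132). Libraries did not overlap for 5 of the 10 genes, 1 higher and 4 lower, against 27.2% of all genes, 13% as higher and 14.2% as lower.

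The authors' deposited table gives a comparison of HG+CD200Fc directly with NG, in which 3 of the genes were lower and 1 higher at a false discovery rate under 0.05. The share of all genes that passed there was not computed, so this count has no background to be read against. In the authors' deposited table the log2 fold change of B2m was -0.32 (false discovery rate 6.46e-04), that of Psmb8 -0.32 (0.00344), that of Psmb10 -0.33 (0.0121), and that of Nlrc5 0.35 (1.38e-04). The values for H2-K1 (-0.13) and H2-D1 (-0.13) in the authors' deposited table had false discovery rates of 0.243 and 0.258.

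The class I family is larger than its classical members. Of 20 other class I and class I-like heavy chains, 17 were tested, and in HG vs NG 9 were higher and 0 lower (median 0.50), beside 11.7% of all genes that were higher. Of the same genes 11 were lower and 0 higher in HG+CD200Fc vs HG (median -0.66), beside 8.3% of all genes that were lower. The counts were 9 higher and 10 lower without HG replicate 2, H2-Q6 losing its call. H2-T23, the Qa-1 heavy chain recognised by NKG2A receptors, rose from 17.5 ± 1.57 to 40.2 ± 7.85 CPM (log2 fold change 1.2 ± 0.18, adjusted p = 5.27e-04) and fell to 16.3 ± 1.51 CPM with CD200Fc in high glucose (-1.31 ± 0.19, adjusted p = 3.71e-04). H2-T24 rose by 1.00 ± 0.069 and fell by 0.58 ± 0.069, and it was the 1 gene of this list that passed in HG+CD200Fc vs NG+CD200Fc (0.37 ± 0.069, adjusted p = 0.00268). H2-Q4 (0.66 ± 0.10) and Fcgrt, the neonatal Fc receptor chain that also pairs with B2m (0.56 ± 0.086), were among the 9 higher in HG, and H2-T22 (-0.90 ± 0.14) among the 11 lower with CD200Fc. The interaction passed for 6 of the 17, all lower, beside 3.58% of all genes, and for 7 without HG replicate 2, and NG+CD200Fc vs NG for 0 with edgeR, with 0 at an unadjusted p under 0.05. H2-T3, H2-M5 and Azgp1 had at most 64 counts over all libraries and were not tested. Reads of the Q and T region genes can be shared within the family, as described for H2-D1.

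**Figure D5:**
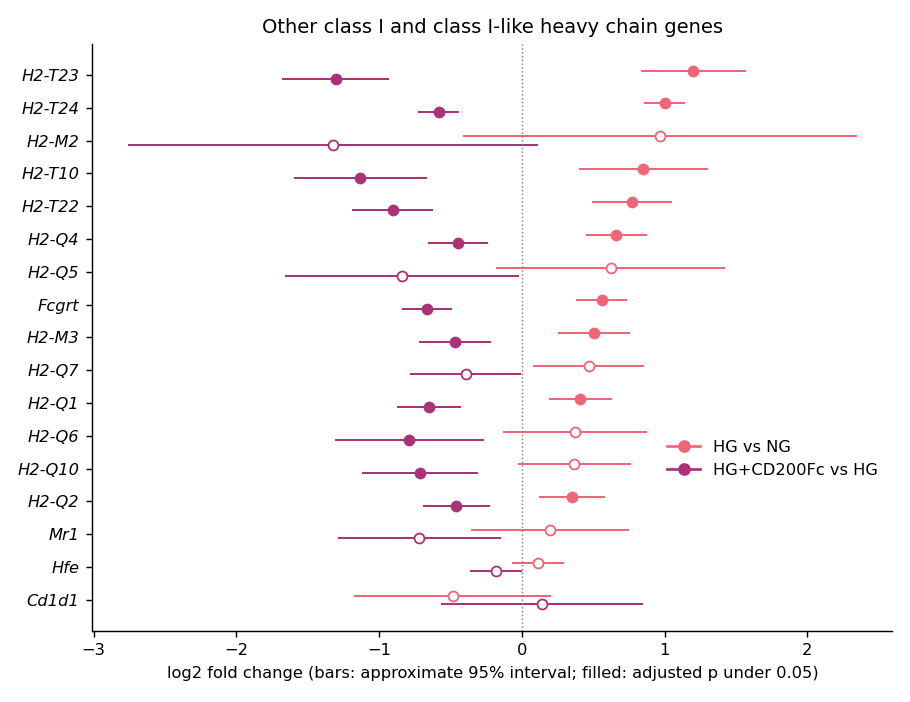
Log2 fold change with its approximate 95% interval for 17 other class I and class I-like heavy chain genes, in HG vs NG and in HG+CD200Fc vs HG, filled where the adjusted p was under 0.05. The 9 filled points of HG vs NG lie above 0 and the 11 filled points of HG+CD200Fc vs HG lie below 0, and H2-T23 is at the top with 1.2 and -1.31.

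Other proteins that load or trim class I peptides showed no common direction. Of 13 listed 12 were matched and tested, and of these 2 were higher and 1 lower in HG vs NG, beside 11.7% and 12.9% of all genes, a share near the background. They were the tapasin relative Tapbpl (0.50 ± 0.15) and the aminopeptidase Npepps (0.36 ± 0.056) against the hydrolase Blmh (-0.21 ± 0.056). In HG+CD200Fc vs HG the chaperones Calr (-0.17 ± 0.052, adjusted p = 0.0223) and Pdia3 (-0.23 ± 0.055, adjusted p = 0.00295) were lower and Uggt1 (0.17 ± 0.049, adjusted p = 0.0164) was higher, beside 8.3% and 9.46% of all genes. The trimming enzyme Erap1 did not pass in either (-0.11 ± 0.066 and -0.17 ± 0.067) and was lower in HG+CD200Fc than in NG+CD200Fc (-0.28 ± 0.067, adjusted p = 0.0101). The list's medians were 0.05 and -0.09. Each of these calls in HG vs NG and in HG+CD200Fc vs HG was kept without HG replicate 2. In HG+CD200Fc vs NG+CD200Fc 1 gene of the list was higher and 2 were lower, beside 4.65% and 3.65% of all genes. They were Npepps (0.25) against Erap1 and Pdia3 (-0.17). Without HG replicate 2, 1 was higher and 3 were lower there.

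The proteasome activator PA28 consists of Psme1 and Psme2, both interferon-induced. Psme1 was higher in HG than in NG (0.27 ± 0.064, adjusted p = 0.00233) and lower in HG+CD200Fc than in HG (-0.36 ± 0.065, adjusted p = 1.86e-04). Psme2 did not pass in HG vs NG (0.20 ± 0.099, adjusted p = 0.161) and was lower in HG+CD200Fc vs HG (-0.61 ± 0.10, adjusted p = 2.88e-04), as were Psmb8 and Psmb10. The nuclear activator Psme3 went the other way, at -0.32 ± 0.052 and 0.26 ± 0.053, both past the threshold. Among all 10 activators and assembly factors, 1 was higher and 5 lower in HG vs NG, beside 11.7% and 12.9% of all genes, the latter including the proteasome assembly factor Pomp (-0.27 ± 0.069) and Psmg4 (-0.55 ± 0.11). Of these, 1 was higher and 4 lower without HG replicate 2, Psmg1 losing its call.

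Of 17 tested transcription factors that bind class I promoters or carry interferon signals, 8 were higher and 2 lower in HG vs NG, beside 11.7% and 12.9% of all genes, and 7 and 2 without HG replicate 2. Irf1 went from 22.4 to 30.1 CPM (0.43 ± 0.092, adjusted p = 0.00104) and back to 23.4 with CD200Fc (-0.36 ± 0.092, adjusted p = 0.00625). Stat2 rose by 1.23 ± 0.073 and fell by 0.95 ± 0.073. Rfx5, which belongs to the complex that brings NLRC5 to class I promoters, rose by 0.33 ± 0.086 (adjusted p = 0.00547) and fell by 0.34 ± 0.086 (adjusted p = 0.00504). Rfx5, Nfyb and Nfyc were picked from the list after their values were seen. The CCAAT-binding subunits Nfyb (-0.36 ± 0.086) and Nfyc (-0.35 ± 0.079) were lower in HG. The NF-kB subunits Nfkb1 (0.18 ± 0.057, adjusted p = 0.0232) and Rela (0.20 ± 0.070, adjusted p = 0.0421) were higher in HG+CD200Fc than in HG, where 4 factors of the list were higher and 5 lower, beside 9.46% and 8.3% of all genes. There 2 were higher and 6 lower without HG replicate 2, the calls of Rela (0.17, adjusted p = 0.139) and Nfyc being lost. Nfkb1 was also higher in HG than in NG (0.19) and in HG+CD200Fc than in NG+CD200Fc (0.27), both past the threshold. Rela passed in neither of these (0.07 and 0.20). Ciita, the class II counterpart of Nlrc5, had 45 counts over all libraries and was not tested.

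The interferon ligands listed, Ifng and Ifnb1, were at or near the floor, and other interferon genes were not looked up. Ifng had 0 counts in every library, which allows a level of up to 3 counts per library, and Ifnb1 had 32 counts over all 12 libraries. Of 12 receptors, kinases and brakes tested, 4 were higher and 0 lower in HG vs NG, beside 11.7% and 12.9% of all genes, and 3 and 0 without HG replicate 2. Among them were the receptor kinase Tyk2 (0.69 ± 0.066) and the brake Usp18 (0.62 ± 0.081). In HG+CD200Fc vs HG, Usp18 (-0.81 ± 0.081), Tyk2 (-0.35 ± 0.066) and the receptor chain Ifngr1 (-0.37 ± 0.092) were lower and the phosphatase Ptpn1 (0.20 ± 0.058) was higher, beside 8.3% and 9.46% of all genes, with the same 4 calls without HG replicate 2.

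The 10 genes were not alike in equal measure. When log2 CPM was standardised over the 12 libraries and each gene was compared with the mean of the other 9, H2-K1 was the closest with a root mean square difference of 0.108, followed by H2-D1 (0.203), Tap1 (0.274) and Psmb9 (0.289). Nlrc5 (0.759), Psmb10 (0.720) and Psmb8 (0.626) were the farthest. Among 11185 other genes with a mean of at least 1 CPM, the genes closest to the mean profile of the 10 were Bst2 (0.109), Cd52 (0.157), P4hb (0.158), Slc31a2 (0.163) and Cmpk2 (0.166). Bst2, which encodes the antiviral protein tetherin, went from 159 ± 5.52 CPM in NG to 294 ± 35.2 in HG and 140 ± 7.63 in HG+CD200Fc. P4hb, which encodes protein disulfide isomerase of the endoplasmic reticulum, went from 547 ± 9.89 to 693 ± 48.7 and 518 ± 10.1 CPM. These libraries chose the genes, so their values are a description.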

How the data were processed

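The authors' deposited count table holds raw read counts per gene for 12 libraries, with no normalization per the file headers. Per the labels' protocols, ribosomal RNA was removed with RNase H and random-primed libraries were sequenced as paired reads of 150 bases. Build GRCm38, the aligner STAR and the counter featureCounts of Subread are among the names in the submitters' processing notes, beside Salmon and bcl2fastq and, for statistics, limma and edgeR. The strand setting and annotation release were not given in those notes. A second deposited table by the authors gives log2 fold changes, p-values and false discovery rates, and was used only where named.

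Of 55774 lines, 287 repeats with identical counts were dropped, leaving 55487 identifiers, 99.4% of them in GENCODE M21, which gave coordinates and lengths. Totals ran from 21454087 to 31905649 counts, without molecular identifiers, so depth bounds the counting error and no other. After filterByExpr, 19182 genes were scaled by TMM and fitted in 1 robust quasi-likelihood model of the 4 group means over all 12 libraries with edgeR 4.0.16 (R 4.3.3; biological coefficient of variation 0.0908). The 5 contrasts were each adjusted by Benjamini-Hochberg over all genes tested, at a threshold of 0.05. Errors of log2 fold changes are standard errors from the model, intervals are approximate 95% intervals, and CPM are mean ± SD of 3 libraries. Ratios of counts per kilobase of the principal transcript were compared with exact two-sided permutation tests.

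The 10 genes and all lists were chosen with earlier results of these data known. Of each further list, the 4 genes with the smallest p in a contrast could be named, with Psmb5, Psmb6, Psmb7, Irf1, Ciita, Psme1 and Psme2 and 1 further gene that is not reported here, and for likeness the 5 genes closest to the mean standardised log2 CPM of the 10 genes, leaving out predicted genes and pseudogenes. Markers of photoreceptors and neurons summed to 33.8 to 41.3 CPM in NG, 30.5 to 37.6 in NG+CD200Fc, 29.6 to 32.8 in HG and 38.3 to 41.6 in HG+CD200Fc. Those of astrocytes and Muller glia summed to 142 to 167 CPM over all groups. Markers of endothelium and mural cells summed to 446 to 506 CPM in HG+CD200Fc and to 379 to 423 CPM over the other groups.

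Alternatives were DESeq2 size factors, upper quartile scaling, no filter, a filter asking for 1 CPM and 10 counts in 3 libraries (the stricter one), voom with quality weights in limma 3.58.1, DESeq2 1.42.0, the replicate number as a block, fitting only the groups compared, and leaving out each library. The labels only number the libraries and do not say that the numbers pair samples. Deviations of same-numbered libraries correlated between -0.03 and 0.11 over 18 pairs, with 2 over 0.1. With the number as a block more genes passed in each contrast, such as 5258 against 4720 in HG vs NG. Whether the numbers pair samples was not settled.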

Additional observations from a re-analysis of the deposited data

Results flagged for a closer look

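The difference between the effect of CD200Fc in high glucose and its effect in normal glucose, tested as the interaction in the edgeR model, passed an adjusted p of 0.05 for 8 of the 10 genes, beside 7.2% of all genes tested. The log2 values were -0.60 for H2-K1, -0.49 for H2-D1 and -0.66 for B2m among the chains of the class I molecule. They were -0.92 for Tap1, -0.58 for Tap2 and -0.37 for Tapbp among the loading genes, -0.49 for the coactivator Nlrc5, and -0.86 for the immunoproteasome subunit Psmb9. A negative value means a lower level with CD200Fc in high glucose than its effect in normal glucose would give. For these 8 genes the call held in all 19 alternatives tried. Without HG replicate 2, the library with the high share of ribosomal RNA genes, the values ran from -0.38 for Tapbp to -0.93 for Psmb9.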

How the results depend on the processing

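In HG vs NG and in HG+CD200Fc vs HG, each of the 10 genes kept its direction and its side of the threshold in all 20 alternatives.

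In HG+CD200Fc vs NG+CD200Fc, 1593 genes passed, 2559 with voom, and 277 to 2288 when 1 library was left out: 277 without HG+CD200Fc replicate 2, 344 without NG+CD200Fc replicate 3, 646 without HG+CD200Fc replicate 3 and 665 without NG+CD200Fc replicate 1. Of the 10 genes, 1 to 3 passed when 1 library was left out, against 2 with all. Of the calls 56.0% were higher, and 69.3% under upper quartile scaling. Tap2 (-0.0014) changed sign without passing, at 0.0033 with DESeq2 and its size factors, 0.034 under upper quartile scaling, 0.0048 under the stricter filter, 0.073 with voom, and -0.096 to 0.048 with 1 library left out.

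In NG+CD200Fc vs NG, 0 genes passed, against 21 with no filter, 9 with only the groups compared in the fit, 2 with the replicate block, and 0 to 8 with 1 library left out (8 without HG replicate 1). Values near 0 changed sign and did not pass. B2m was -0.00087 with no filter, -0.0056 with voom and -0.0010 with only the groups compared. With voom Tap1 was -0.0035, Tapbp -0.0044 and Psmb9 -0.044. With 1 library left out the ranges were -0.080 to 0.0076 for H2-K1, -0.12 to 0.0068 for H2-D1, -0.047 to 0.039 for B2m, -0.0089 to 0.068 for Tap1, -0.023 to 0.043 for Tapbp, -0.048 to 0.059 for Psmb9 and -0.18 to 0.018 for Psmb10. The cause of these changes was not tested.

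Psmb10 gained a call in HG+CD200Fc vs NG+CD200Fc with no filter (-0.28, adjusted p = 0.00814), with only the groups compared (-0.28, adjusted p = 0.047), without NG replicate 2 (-0.28, adjusted p = 0.0498) and without NG+CD200Fc replicate 2 (-0.35, adjusted p = 0.0345). In a fit with the replicate number as a block it passed there (-0.27, adjusted p = 0.0153) and in the interaction (-0.44, adjusted p = 0.00536), and under the block the ratio of Psmb8 to Psmb5 kept its difference of 0.27 with an exact p of 0.0625 instead of 0.025. The block changed no other call of the 10 genes. For 6 of 12 libraries, the mean correlation of deviations was highest with the libraries of their own number in the other groups.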
